A study of Mus musculus with 15 samples.

Results

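The miR-290 and miR-302 clusters are the microRNA clusters best known from pluripotent mouse cells, and their mature products were read from small RNA libraries of E16.5 foetal testes (E, embryonic day). The members were all names of the mature microRNA class numbered miR-290 to miR-295, miR-302 or miR-367. This gave 21 of the 1305 mature microRNA names found, 15 from the miR-290 cluster and 6 from the miR-302 cluster. The groups were 3 control libraries (Tex15+/-) and 3 knockout libraries (Tex15-/-) on a mixed B6CBAF1/Crl and C57BL/6N background, each made from RNA of 15 to 40 nt taken from 6 foetal testes. Tex15 encodes a partner of the nuclear PIWI protein MIWI2, and the null allele is a CRISPR/Cas9 insertion in an early exon, so the controls carry 1 copy of it. Gene counts from E16.5 gonocytes (foetal male germ cells) sorted by a Miwi2 tdTomato reporter that both genotypes carried were used for the precursor loci and for genes of the pathway, with 3 libraries of each genotype.

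Each cluster is transcribed as a long precursor that is cut into hairpins and then into short duplexes, from which the 5p or the 3p strand is loaded into an Argonaute protein. Target choice rests largely on the seed, bases 2 to 8 of the loaded strand. The AAGUGCU seed shared by several 3p members is known in embryonic stem cells for repressing inhibitors of the cell cycle, and the miR-290 cluster is also known from primordial germ cells, the ancestors of gonocytes.

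The 9 members above 10 RPM (reads scaled to 1000000 mature microRNA reads of a library) as a mean over all 6 libraries fall into few seed groups. Their sequences, and those of the lower miR-290a-5p and miR-302b-3p, are shown because those groups organise the values that follow. Capitals mark the seed. RefSeq (GRCm38.p6) held a mature sequence for 19 of the 21 members, and these lines give its sequence 5′ to 3′.
miR-292a-5p: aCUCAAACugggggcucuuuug
miR-293-5p: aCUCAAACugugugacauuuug
miR-290a-5p: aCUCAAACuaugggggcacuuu
miR-291a-3p: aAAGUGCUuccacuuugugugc
miR-294-3p: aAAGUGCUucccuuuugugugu
miR-295-3p: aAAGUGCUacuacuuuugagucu
miR-302b-3p: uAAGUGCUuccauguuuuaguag
miR-293-3p: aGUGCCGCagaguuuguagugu
miR-291a-5p: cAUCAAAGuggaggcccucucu
miR-291b-5p: gAUCAAAGuggaggcccucucc
For miR-292a-3p the 2 most read deposited forms are shown, in the DNA letters of the files, because they differ by a base at the start and so in seed.
miR-292a-3p, longer form: aAAGTGCCgccaggttttgagtgt
miR-292a-3p, shorter form: aAGTGCCGccaggttttgagtgt
Among the 19 members with a RefSeq sequence, the CUCAAAC seed was shared by 3 and the AUCAAAG seed by 2. The AAGUGCU seed was shared by 5, of which miR-302b-3p and miR-302d-3p come from the other cluster, and it was also that of the most read deposited form of miR-302a-3p, which is outside these 19.

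The hairpins of the miR-290 cluster lie within 2216 bp at chr7:3218626-3220841 (GRCm38), 7 on the plus strand and 2 (Mir290b and Mir292b) on the minus strand. In the GENCODE annotation 7 of these 9 hairpins fall inside an exon of the protein-coding gene Nlrp12, which runs on the minus strand. The 5 miR-302 cluster hairpins lie within 580 bp at chr3:127545228-127545807, all on the plus strand and inside an intron of Larp7, which runs on the minus strand.

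The libraries held between 5671330 and 34180789 mature microRNA reads, and control replicate 2 was the deepest. Knockout replicate 2 stood apart: reads of 25 to 30 nt, the size of piRNAs, were 24.7% of its 18 to 32 nt reads, against 32.3% to 36.7% in the other libraries. No read crossed the edited site of Tex15 in any library, so the genotypes of the small RNA libraries rest on their labels. The libraries are of whole testis, and fewer germ cells cannot be told apart from less of a microRNA in each germ cell. Markers of other cells were abundant: endothelial miR-126 summed to 37702 to 47539 RPM in controls and 31435 to 41071 in knockouts, and smooth muscle and muscle microRNAs (miR-143, miR-145a, miR-1a, miR-133a and miR-206) to 14764 to 20260 and 16218 to 21354. The gonadal somatic miR-202 stood at 2351 to 2473 in controls and 1755 to 2523 in knockouts. Erythroid microRNAs stood at 89.9 to 132 and 65.5 to 90.7, and leukocyte microRNAs at 81.6 to 117 and 56.6 to 81.8. Neuronal miR-124 and miR-9 were 175 to 211 in controls and 121 to 169 in knockouts, the only marker list whose groups did not overlap. No marker list had a name at 0 in every library or a name past the test described below, and the part of these cells in the results was not tested.

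The miR-290 cluster was clearly present in foetal testis, and most of its reads were of miR-292a. In the controls, the cluster made up 3444, 3127 and 3306 RPM, which is 0.344%, 0.313% and 0.331% of mature microRNA reads. The 95% exact binomial intervals of these 3 values reached at most 3491 and at least 3108; such intervals cover counting error only, since the reads carry no molecular identifiers. miR-292a-5p alone held 49.7%, 53.4% and 50.2% of the cluster in the controls, where it ranked 62nd by mean level among the 1305 names. In the knockouts it held 64.1%, 76.3% and 53.6%, replicate 3 being close to the highest control value.

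In the controls, the order of these 9 members began with miR-292a-5p at 1681 ± 28.5 (SD, n = 3). It was followed by miR-292a-3p at 545 ± 78.6 and by miR-293-3p at 436 ± 62.0, whose ranges over libraries overlapped. Then came the AAGUGCU member miR-291a-3p at 184 ± 57.8 and miR-295-3p of the same seed at 137 ± 1.33. Next were miR-293-5p at 108 ± 10.1 and miR-294-3p at 102 ± 12.3, which also overlapped. The last of the 9 were miR-291b-5p at 59.7 ± 3.83 and miR-291a-5p at 22.9 ± 3.27. Below them, miR-290a-5p was at 10.5 ± 1.03 in the controls and 7.80 over all 6 libraries. In the knockouts the ranges of 5 of the 8 pairs of neighbours in this order overlapped, against 2 in the controls.

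**Figure D1:**
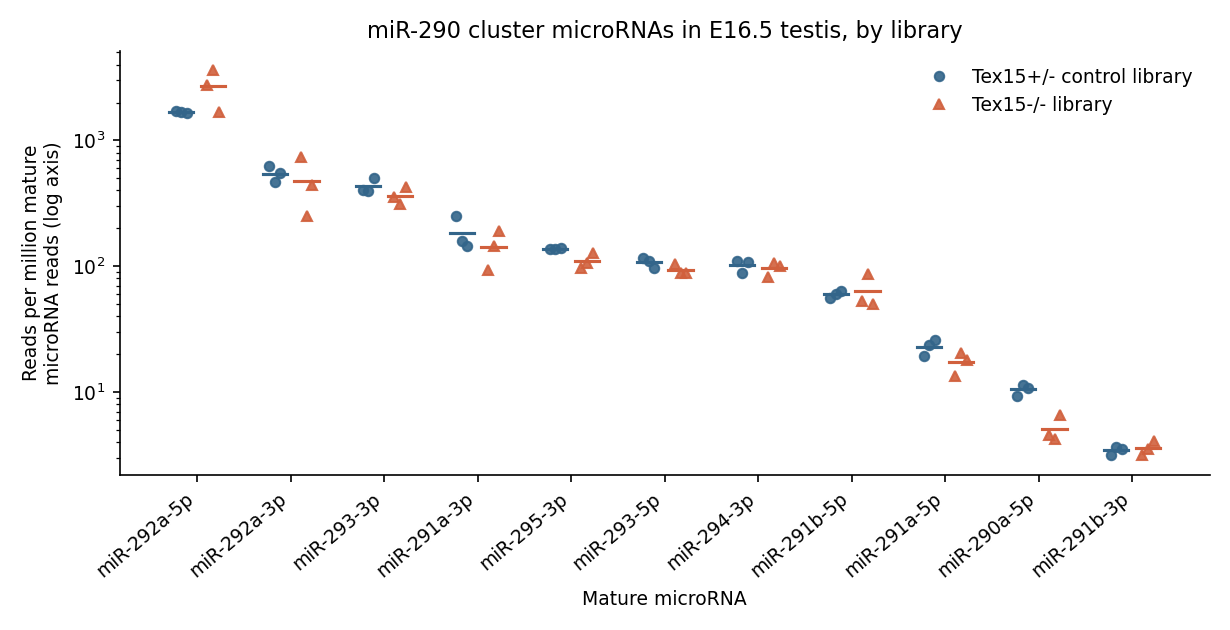
Level of the 11 miR-290 cluster microRNAs with more than 200 reads in all, in RPM on a log axis; each point is a library and each short line the mean of 3 libraries. miR-292a-5p sits highest in both genotypes, with 2 of 3 knockout points above all control points, and miR-290a-5p is lower in every knockout library than in every control library. Of the 580 tested names, 17.4% were lower in every knockout library.

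Hairpins of the same precursor differed widely in reads, and how evenly the libraries captured different sequences was not tested. In the controls the mir-292a hairpin gave 67.6% of the cluster's reads and mir-293 gave 16.52%, whereas mir-290a, the first hairpin, gave 0.320% and mir-291b gave 1.92%. In the knockouts, the mir-292a share was 77.9%, and those of the other plus-strand hairpins were between 0.131% and 11.3%. The minus-strand Mir292b gave 1 read in the controls and 5 in the knockouts.

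**Figure D2:**
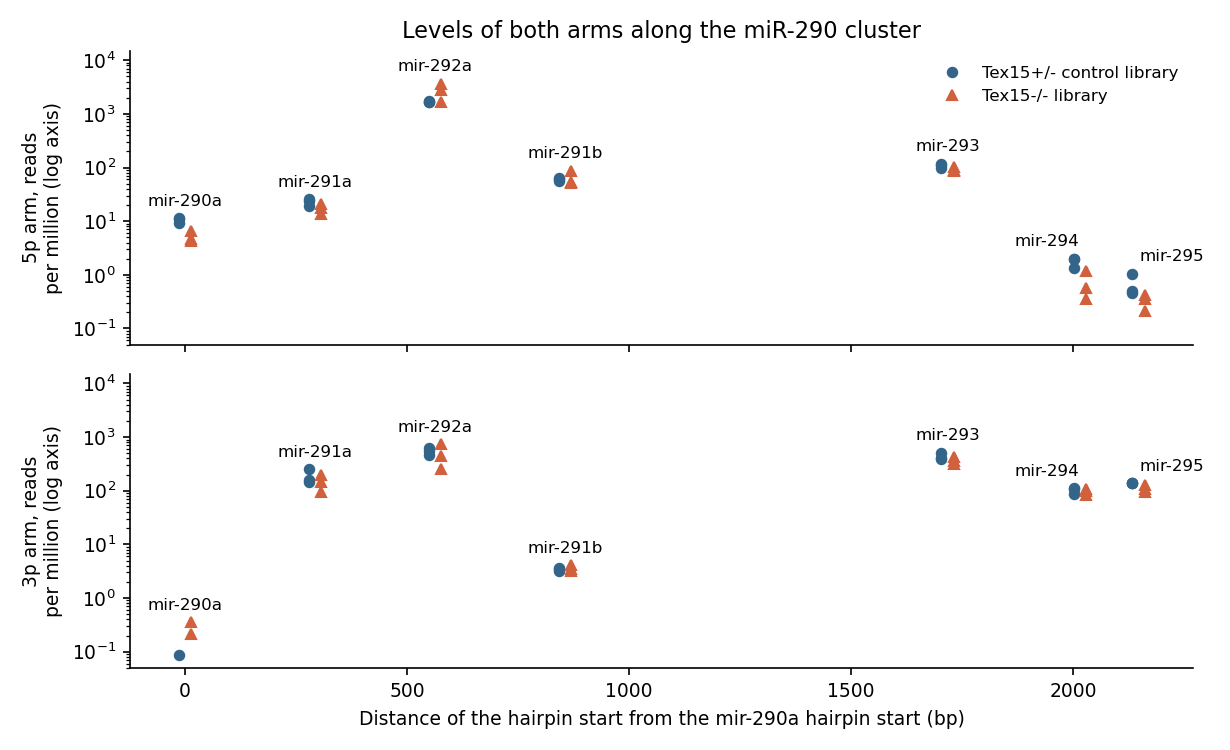
Levels of the 5p arm (upper panel) and the 3p arm (lower panel) of the 7 plus-strand hairpins, in RPM on a log axis, against the distance of each hairpin from the start of mir-290a in bp; each point is a library, and libraries with 0 reads are not drawn. The 5p arm peaks at mir-292a, 563 bp along, and the 3p arm is low at both mir-290a and mir-291b.

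The cluster as a whole did not separate the genotypes. It summed to 4273, 4748 and 3141 RPM in the knockouts, a mean of 4054 ± 825 against 3292 ± 159 in the controls (SD, n = 3 each), or 1.23 times. The highest values were those of knockout replicates 1 and 2, whereas replicate 3 lay inside the control range. Without replicate 2 the knockout mean was 3707. Without miR-292a-5p, the remaining members summed to 1731, 1456 and 1648 in the controls and 1536, 1123 and 1458 in the knockouts, which is 0.852 times and again overlapping.

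miR-292a-5p was the member behind the higher sum. It stood at 1713, 1670.4 and 1659 RPM in the controls and at 2737, 3625 and 1684 in the knockouts. The controls lay close together, and knockout replicate 3 fell between control values. Without TMM scaling between libraries, as in the RPM values, the log2 fold change was 0.67. With TMM scaling it was 0.84 ± 0.29 (SE). The unadjusted p was 0.0240 and the adjusted p 0.364 (edgeR quasi-likelihood test, Benjamini-Hochberg over all 580 tested names), so the difference did not pass. It was 0.55 without knockout replicate 2 and 1.096 without replicate 3, where the adjusted p was 0.0427.

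The opposite strand of that hairpin was also raised in knockout replicate 1 but not in replicate 2. miR-292a-3p stood at 622, 465 and 546 RPM in the controls and at 732, 252 and 439.9 in the knockouts, with the lowest value of all 6 in knockout replicate 2 and the highest in replicate 1. Its log2 fold change was -0.04 ± 0.37 (adjusted p = 0.971, edgeR). The value became -0.56 without knockout replicate 1, 0.26 without knockout replicate 2, 0.05 without knockout replicate 3 and 0.07 without control replicate 1.

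The same comparison can be made within the hairpin. The 3p share of 5p plus 3p reads was 26.6%, 21.8% and 24.8% in the controls and 21.1%, 6.51% and 20.7% in the knockouts. Every knockout value was below every control value, by little in replicates 1 and 3 and by much in replicate 2. The difference of the means was -8.29 percentage points, and -3.50 without knockout replicate 2. With every distinct sequence counted once it was -2.52, but that is a share of forms, which can vary with depth, and not of reads. An exact two-sided permutation test on the shares of reads gave p = 0.10, the smallest that 3 against 3 allows. After adjustment over the 24 shares tested it was 0.480. Among all 210 hairpins read on both arms, 14.3% had a lower 3p share in every knockout library and 26.7% did not overlap in either direction. Knockout replicate 2, which decides the size of this value, is also the library with the low piRNA-size share and the highest level of Tex15 reads. The part of these in the result was not tested.

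The other 5 hairpins kept a steady choice of arm. The 3p share was 84.8% to 92.8% for mir-291a, 77.3% to 83.9% for mir-293 and 99.2% to 99.8% for mir-295 over the 6 libraries, with overlapping groups. mir-291b was used the other way, with a 3p share of 3.91% to 7.5%, although its 5p strand has the AUCAAAG seed that mir-291a also gives. For mir-294 the share was 98.8%, 97.8% and 98.2% in the controls and 99.3%, 99.7% and 98.9% in the knockouts, a difference of 1.02 percentage points without overlap (exact permutation p = 0.10, adjusted 0.480). Of the 210 hairpins, 12.4% had a higher 3p share in every knockout library.

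**Figure D3:**
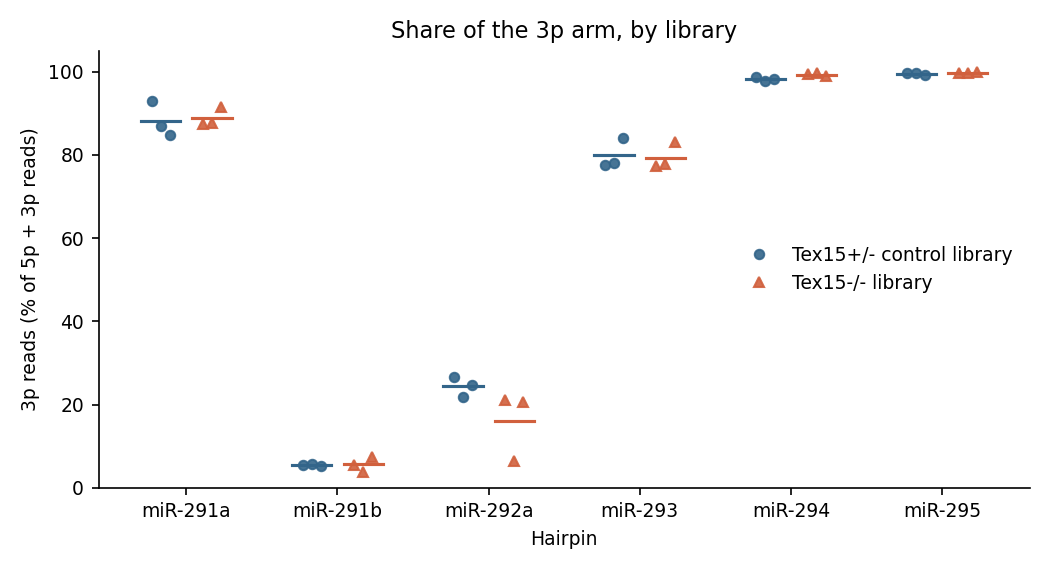
Share of reads from the 3p arm among 5p plus 3p reads of each hairpin, in percent; points are libraries and short lines the means of 3 libraries. mir-291b and mir-292a are read mostly from the 5p arm and the other 4 mostly from the 3p arm, and knockout replicate 2 is the low point of mir-292a at 6.51%.

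No member passed the test between genotypes. Of the 21 members, 13 had enough reads to be tested, 12 of the miR-290 cluster and miR-302b-3p. At an adjusted p under 0.01, 0 of 580 tested names (0%) were called by edgeR, 5 (0.862%) at 0.05, and 79 (13.6%) had an unadjusted p under 0.05; DESeq2 called 11 at 0.01. None of the calls at 0.05 was a member, and 3 of the 13 members had an unadjusted p under 0.05: miR-292a-5p, miR-290a-5p and miR-294-5p. The members' log2 fold changes were below 0 for 8 and above 0 for 5, with a median of -0.06, beside -0.01 over all tested names. Without TMM scaling the median of all names was -0.15, a shift of -0.14, and 9 members were below 0 and 4 above.

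The first hairpin gave the tested member with the smallest unadjusted p (0.00521, edgeR), which did not pass after adjustment. miR-290a-5p, of the CUCAAAC seed, stood at 9.34, 11.4 and 10.8 RPM in the controls and at 4.57, 4.23 and 6.52 in the knockouts. All knockout values lay below all control values, as for 17.4% of the 580 tested names. The knockout mean was 0.487 times the control mean in RPM, which carry no TMM scaling. The log2 fold change was -1.03 without TMM scaling and -0.89 ± 0.23 with it (adjusted p = 0.285 with it, edgeR). Without each library in turn the log2 value stayed between -1.07 and -0.79.

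The passenger strand miR-294-5p was at 1.335, 1.99 and 1.99 RPM in the controls and 0.571, 0.353 and 1.16 in the knockouts, from 2 to 68 reads a library, without overlap (log2 fold change -1.16 ± 0.43, adjusted p = 0.364, edgeR). Without knockout replicate 3 it was -1.75 (adjusted p = 0.112, edgeR). miR-295-3p, of the AAGUGCU seed, was at 136, 136 and 139 in the controls and 96.3, 106 and 128 in the knockouts, also without overlap (log2 fold change -0.17 ± 0.16, adjusted p = 0.612, edgeR), and its log2 value was -0.26 without knockout replicate 3 and -0.32 without TMM scaling. These 3 were the tested members, 3 of 13, whose knockout libraries were all lower, which 17.4% of all 580 tested names also were. No tested member was higher in every knockout library, against 6.72% of names.

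The remaining members overlapped between genotypes. miR-293-3p read 405, 395 and 507 RPM in the controls and 354, 309.8 and 428 in the knockouts. miR-291a-3p read 251, 159 and 143.9 and then 92.7, 143.7 and 192, with its lowest value in knockout replicate 1. miR-294-3p, of the same seed, read 110.5, 88.2 and 108 and then 82.5, 106 and 101, and its small fold change (log2 0.07 ± 0.18) was below 0 without TMM scaling. For the other 4 tested miR-290 members the log2 fold changes lay between -0.26 (miR-291a-5p) and 0.25 (miR-291b-5p), with adjusted p-values of 0.566 to 0.893 (edgeR).

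**Figure D4:**
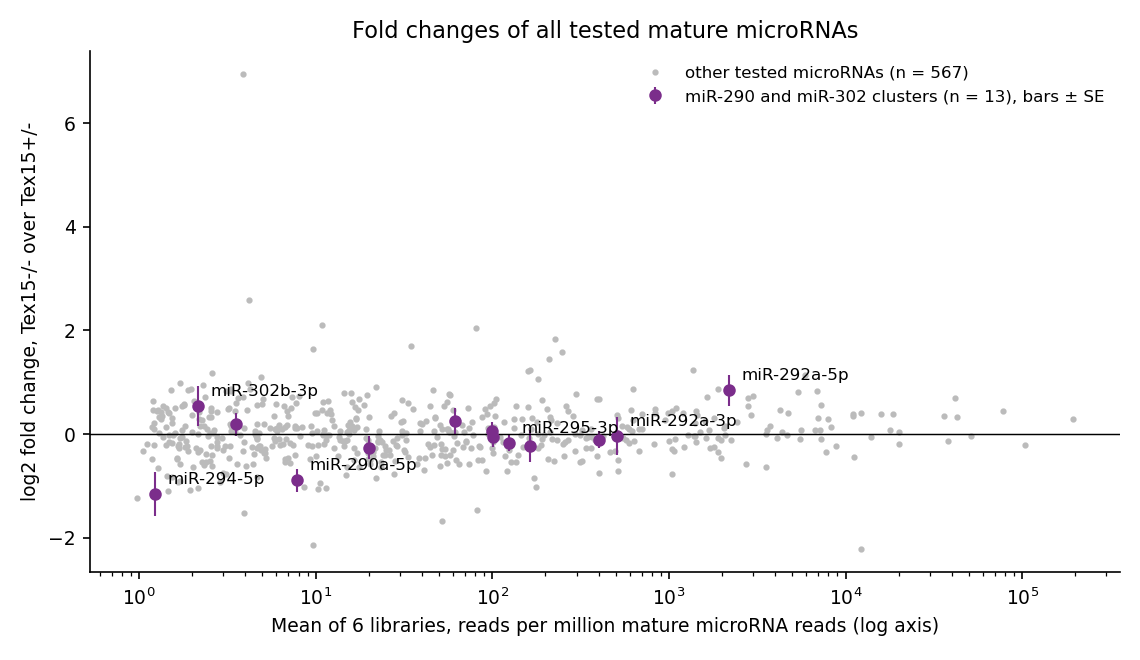
log2 fold change of Tex15-/- over Tex15+/- against the mean level over 6 libraries (log axis, RPM) for all 580 tested mature microRNAs; purple points with bars (± SE) are the 13 tested cluster members. The members lie among the other names, miR-292a-5p highest at 0.84 and miR-294-5p lowest at -1.16.

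The miR-302 cluster was near the limit of detection. All 6 of its names together gave 249 reads over the 6 libraries. That is 3.004, 3.63 and 3.63 RPM in the controls against 3.57, 5.11 and 2.31 in the knockouts, with exact 95% intervals that overlap between all libraries, those of knockout replicates 2 (3.42 to 7.34) and 3 (1.45 to 3.50) only at their ends. Its means were 3.42 ± 0.361 and 3.66 ± 1.40 (SD, n = 3 each). The ratio of the means was 1.07, and the log2 ratio became -0.22 without knockout replicate 2.

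miR-302b-3p supplied most of these reads, at 1.502, 2.19 and 1.76 RPM in the controls and 2.14, 3.70 and 1.68 in the knockouts (log2 fold change 0.53 ± 0.39, adjusted p = 0.513, edgeR). The log2 value was 0.14 without knockout replicate 2. miR-302d-3p was read 3 to 22 times a library and miR-302a-3p 1 to 17 times. miR-302c-3p was read 2, 7 and 2 times in the controls and 0, 0 and 1 times in the knockouts. miR-302a-5p and miR-367-3p had at most 2 reads in any library. A further 7 names with a RefSeq mature sequence (miR-290b-3p, miR-290b-5p, miR-292b-3p, miR-302b-5p, miR-302c-5p, miR-302d-5p and miR-367-5p) had no read, which allows up to 0.0878 RPM in the deepest library and 0.529 in the shallowest.

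The remaining low miR-290 members were miR-291b-3p at 3.14 to 4.10 RPM, miR-295-5p at 0.210 to 1.05, and miR-290a-3p and miR-292b-5p with at most 3 reads a library. miR-291b-3p differed by less than the spread (log2 fold change 0.19 ± 0.22, adjusted p = 0.738, edgeR).

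Grouped by seed, the reads of the clusters carried mainly CUCAAAC. Reads with that seed came to 1836, 1789 and 1764 RPM in the controls and 2840, 3713 and 1775 in the knockouts, and all of them carried member names. The stem cell seed AAGUGCU came to 435, 331 and 339.9 RPM from members in the controls and 237, 309.5 and 365 in the knockouts. Members supplied 98.7% to 99.5% of all mature microRNA reads with exactly that seed. The largest other source was miR-17-5p in control replicate 1 and miR-93-5p in the other libraries. Reads with a seed that was similar but shifted or changed by a base were not counted. The GUGCCGC seed of miR-293-3p came to 310.2 to 507 RPM.

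The AAGUGCC seed, of the longer miR-292a-3p form, was shared with other microRNAs. Members gave 254 to 360 RPM of it in the controls and 132 to 411 in the knockouts, or 65.2% to 85.8% of its reads, and miR-467a-5p was the largest other source.

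The start of a read sets its seed, and starts varied most for miR-292a-3p among the 9 members above 10 RPM, by the reads counted. Over reads of 18 to 28 nt, the reference start was used by at least 98.8% of miR-292a-5p, miR-293-3p and miR-293-5p reads and 98.4% to 99.1% of miR-294-3p reads in every library. It was used by 98.0% to 100% of miR-291a-5p reads and 88.3% to 92.2% of miR-291b-5p reads. These sequences differ only at their first and last bases, and reads that matched both equally well were left out. Later starts of these members were therefore mostly not counted, and their start shares cannot show how often such starts occur. For miR-292a-3p, the start of its most read form was used by 58.1%, 55.4% and 57.3% of reads in the controls and 56.5%, 52.4% and 56.7% in the knockouts, nearly all the others starting a base later with the AGUGCCG seed. Overlap was wide (difference -1.72 percentage points, exact permutation p = 0.40).

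miR-295-3p also began at different bases. Its reference start took 73.61%, 75.3% and 73.5% of reads in the controls and 71.6%, 69.5% and 73.5% in the knockouts. The knockout values were all lower, replicate 3 by a small margin (difference -2.63 percentage points, exact permutation p = 0.10, adjusted 0.480). This was 1 of the 9 members, and by the same steps 6.58% of 319 mature microRNAs of at least 10 RPM had a lower share of reference starts in every knockout library. For miR-291a-3p the reference start took 86.2% to 90.1% of reads in all libraries, with overlapping groups.

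The lengths of the forms are given as shares of the reads filed under a mature name, nearly all of which lie within the reference mature sequence, and not of the aligned reads used for starts and tails. Of the 8 members above 10 RPM with a RefSeq sequence, the most read form was the full sequence for 5, a base short at the 3′ end for miR-293-5p and 2 bases short for miR-295-3p and miR-291b-5p. miR-292a-5p was divided between a 22 nt form (48.3% to 53.3% of these reads in controls, 43.1% to 55.1% in knockouts) and a 21 nt form lacking the last base (41.8% to 46.7% and 41.2% to 52.8%). By contrast, the 22 nt form of miR-291a-3p held 85.3% to 88.5% in all 6 libraries. The 21 nt form of miR-295-3p held 47.9% to 59.1%, and the 20 nt form of miR-291b-5p 48.05% to 52.0%. For miR-291a-5p the 22 nt form held 63.8%, 62.1% and 58.6% in the controls and 69.1%, 65.5% and 68.4% in the knockouts, the only leading form of the 9 members whose groups did not overlap. A higher share of the leading form in every knockout library was found for 6.18% of 372 mature microRNAs of at least 10 RPM, and no test was run on these shares.

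Tails, counted as the last 1 to 3 bases of a read from its first mismatch to the genome on, were frequent at the 3′ ends. A base misread or changed near the end also counts, so the tails are not all added bases. In the controls tails were on 15.0%, 15.7% and 14.9% of miR-292a-5p reads, and in the knockouts on 13.5%, 10.95% and 13.2%. All knockout values were lower (difference -2.68 percentage points, exact permutation p = 0.10, adjusted 0.480). miR-291b-5p moved likewise, from 23.7%, 24.2% and 21.3% to 20.3%, 16.7% and 19.7% (difference -4.14 percentage points, exact permutation p = 0.10, adjusted 0.480). With every distinct sequence counted once the difference was -0.78, but that is a share of forms and not of reads. miR-291b-5p shares most of its sequence with miR-291a-5p, and reads that matched both equally well were left out.

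The kind of tail depended on the member. On miR-291a-3p tails of U alone were on 6.25% to 11.4% of reads and tails of A alone on 1.29% to 2.80%. On miR-293-3p the A tails were on 4.48% to 7.42% and the U tails on 0.199% to 0.332%. On miR-292a-5p both were common, with A tails on 5.69% to 7.65% and U tails on 2.89% to 5.14%. Uridine tails on microRNAs are added by terminal uridylyl transferases such as TUT4 and TUT7. For the other 7 members the groups overlapped in the share with any tail, and in all 9 the knockout mean was lower, by between 0.198 and 4.14 percentage points. Among the 319 mature microRNAs measured in the same way, the tail share was lower in every knockout library for 6.27% and had a lower knockout mean for 69%, with a median difference of -0.56 percentage points, so a lower mean was common beyond the clusters.

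**Figure D5:**
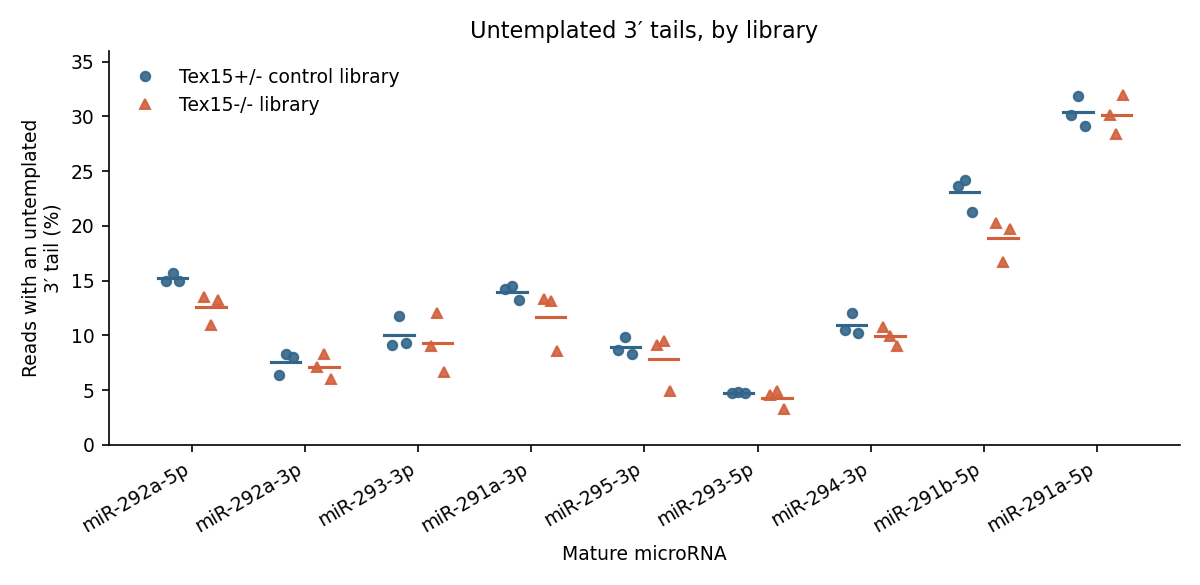
Share of reads of each member with a tail, the last 1 to 3 bases from the first mismatch to the genome on, in percent. Points are libraries and short lines the means of 3 libraries. The knockout points lie below the control points for miR-292a-5p and miR-291b-5p, and the groups overlap for the other 7.

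By the shape of their levels over the 6 libraries, the names most like the summed cluster members, among 189 other names above 100 RPM, were miR-676-3p (Pearson r = 0.97), miR-27a-5p (0.97), miR-341-3p (0.96), miR-674-3p (0.94) and miR-1964-3p (0.92). These r values on log2 levels describe 6 libraries only and turn on knockout replicates 1 and 2. miR-674-3p, for example, read 893, 913 and 854 RPM in the controls and 1694, 2880.3 and 1029 in the knockouts.

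In the sorted gonocytes the edited gene was lower in every library labelled knockout. Tex15 stood at 1491, 1647 and 1634.96 CPM (counts scaled to 1000000 per library, with TMM factors) in the controls and 463, 229 and 247 in the knockouts (log2 fold change -2.35 ± 0.23, adjusted p = 0.0108 over 16311 genes, edgeR). At an adjusted p under 0.01, 0 genes (0%) passed, 3 (0.0184%) at 0.05 and 1497 (9.18%) at an unadjusted 0.05, and DESeq2 called 14 at 0.01.

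The hairpin genes of both clusters gave almost no reads in these long RNA libraries. Each spans only 58 to 84 bp, and reads from the rest of a precursor were not counted under them. Their counts therefore give no level of the precursors. Of the 14 hairpin genes of both clusters, 11 had 0 reads in every library, and Mir302a, Mir302b and Mir302d had 1 read in a library at most. Nlrp12, whose exon covers most of the miR-290 hairpins, had 4 to 17 reads a library. Whether the counting used strand is not given in the sources used here, and the part of that overlap in the zeros was not tested. Larp7, the gene around the miR-302 hairpins and a stabiliser of the 7SK RNA, was at 282, 280.04 and 253 CPM in the controls and 257, 381 and 294.4 in the knockouts (log2 fold change 0.19 ± 0.14, adjusted p = 0.653, edgeR). AU018091, a gene upstream of the miR-290 cluster, was at 2.91, 3.17 and 5.58 and then 2.38, 0.181 and 1.70 CPM, without overlap and with few reads (log2 fold change -1.46 ± 0.69, adjusted p = 0.550, edgeR). Every knockout library was lower for 6.42% of all tested genes.

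Of 18 genes of microRNA processing and action, all were tested and none passed. Their median log2 fold change was -0.06 beside 0.01 over all genes, with 6 above and 12 below 0. The most abundant in the controls were Tnrc6b and Tnrc6a, GW182 proteins that carry out silencing. They stood at 361 to 368 and 328 to 346 CPM in the controls and 292.2 to 354 and 245 to 328 in the knockouts (log2 fold changes -0.20 ± 0.10 and -0.22 ± 0.11, adjusted p = 0.561 and 0.575, edgeR). Of the 18 genes, Tnrc6b and the uridylyl transferase gene Tut7 were lower in every knockout library and Tnrc6c, a paralogue of Tnrc6b, was higher in every one; over all 16311 tested genes these shares were 6.42% lower and 6.8% higher. Tut7 was at 67.4 to 77.8 CPM in the controls and 50.2 to 64.9 in the knockouts (adjusted p = 0.479, edgeR), and Tnrc6c at 287 to 304 and 317.1 to 328 (adjusted p = 0.620, edgeR). In the knockouts Tnrc6c had the highest mean of the 18, at 324 CPM.

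Among 12 pluripotency factors 11 were tested and none passed, with 6 above and 5 below 0 and a median of 0.01. Of the 11, only Klf4, a zinc finger reprogramming factor, did not overlap, at 36.05 to 42.7 CPM in the controls and 43.2 to 56.8 in the knockouts (adjusted p = 0.501, edgeR), beside 6.8% of all tested genes higher in every knockout library. Sall4, a zinc finger factor of germ and stem cells, was at 238 to 251 CPM in the controls and 190.1 to 259.6 in the knockouts (adjusted p = 0.899, edgeR). Utf1, a chromatin-bound factor of the same cells, was at 119.7 to 130.3 and 122 to 133.3 (adjusted p = 0.879, edgeR).

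Of 12 genes known as targets of these microRNAs or of the pathways they act on, 8 were tested and none passed. The cell cycle inhibitor Cdkn1a, the Wnt antagonist Dkk1 and the Nodal antagonists Lefty1 and Lefty2 were too low to test. The other 8 had a median log2 fold change of 0.24 beside 0.01 over all genes, with 7 above 0. All 12 genes summed to 176 to 177 CPM in the controls and to 172, 228 and 183 in the knockouts, highest in replicate 2. Ei24 and the small GTPase gene Rhoc, 2 of the 8, were higher in every knockout library, against 6.8% of all tested genes. Ei24 was at 18.02 to 24.5 CPM in the controls and 24.8 to 29.8 in the knockouts (adjusted p = 0.585, edgeR), and Rhoc at 7.13 to 9.29 and 9.31 to 13.7 (adjusted p = 0.607, edgeR). Lats2, a Hippo pathway kinase and classical target of the AAGUGCU seed, was at 50.05 to 52.3 CPM in the controls and 48.7 to 55.3 in the knockouts (adjusted p = 0.954, edgeR). Casp2, a caspase, was at 29.9 to 39.2 and 27.5 to 31.7 (adjusted p = 0.608, edgeR). Tgfbr2, a TGF-beta receptor, was at 4.37, 3.17 and 3.60 and then 3.76, 13.7 and 10.95 CPM (log2 fold change 1.35 ± 0.45, adjusted p = 0.453, edgeR). Without knockout replicate 1 it passed the test (adjusted p = 0.00901, edgeR), in a fit that called 388 of 17520 genes (2.21%).

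The knockout replicates 2 and 3 of the sort also held more RNA of somatic cells. The 4 interstitial markers summed to 41.2, 45.9 and 41.9 CPM in the controls and 42.4, 714 and 190.2 in the knockouts. The 5 Leydig markers summed to 17.7, 59.2 and 26.8 and then 34.3, 549 and 169, and the 5 Sertoli markers to 11.5, 13.7 and 14.2 and then 12.1, 88.7 and 62.7. Endothelial markers were at 53.5 to 55.5 in the controls and 194 in knockout replicate 2 alone, with 40.8 and 52.3 in the others, and blood markers at 5.40 to 7.33 and 5.94, 20.6 and 25.1. The Leydig marker Insl3 and the globin gene Hba-a1 were at 0 in all controls. Pdgfra, an interstitial marker, was higher in every knockout library, replicate 1 included, at 12.4 to 14.5 CPM and then 17.4, 238 and 70.1. Over all tested genes 6.8% were higher in every one. The Sertoli marker Amh and the blood marker Ptprc, too low to test, were also higher in every one. The Sertoli marker Cldn11, also untested, had a lower mean in the knockouts (0.499 against 1.07). The 8 germ cell markers summed to 2575 to 2689 CPM in the controls and 2447 to 2681 in the knockouts. Dazl, an RNA-binding protein of germ cells, was lower in every knockout library, at 250.6 to 288 and 203 to 235 (adjusted p = 0.471, edgeR), as was Nanos3 at 2.97 to 4.19 and 1.70 to 2.17 (adjusted p = 0.588, edgeR), beside 6.42% of all tested genes. None of these markers passed in the filtered fit of all libraries. Without knockout replicate 1 the test called 4 interstitial, 4 Leydig and 3 Sertoli markers, Kdr and Csf1r, among 2.21% of genes called. With all 6 libraries and no filter on low counts it called 4 interstitial, 5 Leydig and 3 Sertoli markers, Cdh5, Kdr and Csf1r, among 488 of 42446 genes (1.15%). The part of somatic RNA in the values of Tgfbr2, the other listed targets and Klf4 was not tested.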

How the data were processed

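Small RNA of E16.5 testes was sequenced by the authors, who trimmed adaptors (cutadapt 1.8.1), collapsed identical reads and annotated each sequence against mm10; the deposited tables hold raw read counts per sequence. A deposited score column holds each library's RPM factor and was used only as a check. The deposited gonocyte tables hold HTSeq 0.11.1 counts per gene, and 61.3% to 67.3% of read pairs were not assigned to a gene, for any reason. Distinct sequences were summed per mature name and scaled to mature microRNA reads (RPM). edgeR 4.0.16 (TMM, filterByExpr, quasi-likelihood; threshold 0.01) was fitted to all names or genes, 3 against 3, with DESeq2 1.42.0 as alternative; scaling, filters, read lengths, denominators, a replicate block and left-out libraries were varied. The fits were tested on simulated data with a coefficient of variation of 0.2. The spread fitted to the real data was larger, at 0.315 for microRNAs and 0.231 for genes. Of simulated log2 changes of 1, 75% were called for microRNAs and 37% for genes, so changes of that size can be missed. Reads of 18 to 28 nt were aligned to members through 15 nt of reference sequence, with at least 17 matched bases and at most 3 further bases; shares used exact permutation tests, adjusted over 24. The same steps on 319 microRNAs with a RefSeq locus gave the background. Members of at least 10 RPM, and of the gene lists the 2 most abundant genes, Tex15, the precursor and host loci and any gene with adjusted p under 0.05, were to be named. Tgfbr2, Nlrp12, Tnrc6c, Tut7, Klf4, Ei24, Rhoc, Dazl, Nanos3, Cdh5, Kdr, Csf1r, Pdgfra, Amh, Ptprc and Cldn11 were named after their values were seen. The members and lists were chosen with earlier results of these data known. The P20 testis libraries and repeat tables were not used here.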

Additional observations from a re-analysis of the deposited data

Results flagged for a closer look

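Nearly all reads with tails, as counted above, lie outside the levels and arm shares above. They were 10.95% to 15.7% of the aligned miR-292a-5p reads and 28.4% to 31.98% of those of miR-291a-5p. For miR-292a-5p the tail share was lower in every knockout library, so leaving these reads out lowers its control levels more. Levels with them added were not computed. Reads filed under the mir-290a and mir-292a hairpins, rather than under a mature name, also lie outside the levels above. The mir-290a hairpin had 361 such reads over the 6 libraries, and 93.9% of them held the whole of miR-290a-5p and ran on past its end, most often as this 23 nt form with 221 reads.
miR-290a-5p, longer form: aCTCAAACtatgggggcactttt
The genome has a run of T at this place, so an added U cannot be told apart from the encoded base. These longer reads were 30%, 32.9% and 39.5% of all miR-290a-5p reads in the controls and 30.4%, 31.4% and 39.2% in the knockouts. With them added, miR-290a-5p stood at 13.3, 16.9 and 17.8 RPM in the controls and 6.56, 6.17 and 10.7 in the knockouts, still without overlap and at 0.488 times the control mean. By the levels without such reads, 17.4% of the 580 tested names were lower in every knockout library.

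The mir-292a hairpin had 341 reads, 91.5% of which extended miR-292a-5p, and they were at most 0.339% of miR-292a-5p reads in any library. The mir-294 hairpin had at most 2 reads in a library.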

How the results depend on the processing

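No tested member passed an adjusted p of 0.01 under any alternative, and the lowest adjusted p was 0.0427. Of all member values under alternatives, 13 changed sign, in 5 members, and the cause was not tested. miR-294-3p turned to -0.085 without TMM, -0.0059 without the low-count filter and -0.016 with DESeq2 without knockout replicate 2, an alternative added after seeing the data. With that fit miR-292a-3p turned to 0.27 and miR-291b-5p to -0.057. With 1 library left out, log2 values ran from -0.56 to 0.26 for miR-292a-3p, from -0.47 to 0.045 for miR-291a-3p, from -0.19 to 0.013 for miR-293-5p, from -0.023 to 0.12 for miR-294-3p and from -0.062 to 0.40 for miR-291b-5p. Names called at 0.01 rose from 0 to 11 with DESeq2, 7 without the filter, 7 with the added fit, 1 with the newer quasi-likelihood estimate, 1 with all 18 to 32 nt reads as library size and 5 at a threshold of 0.05, and ranged from 0 to 1 with 1 library left out. Gonocyte genes rose to 14 with DESeq2, 2 with the newer estimate, 488 without the filter and 3 at 0.05, and ranged from 0 to 388 with 1 library left out, highest without knockout replicate 1. Tex15 kept its direction throughout and passed 0.01 with DESeq2 (-2.34), the newer estimate (-2.35), no filter (-2.33) and, at 0.05, as fitted (-2.35), with left-out values from -2.74 to -2.17. It also passed 0.01 without knockout replicate 1 (adjusted p = 2.11e-09) or 2 (3.23e-06), and missed 0.05 without control replicate 1 (0.102), 2 (0.229) or 3 (0.275) or knockout replicate 3 (0.136), all by edgeR. The miR-290 log2 ratio stayed between 0.17 and 0.45, and the miR-302 ratio between -0.22 and 0.34. The shares without overlap were 5, and 4 with reads of 20 to 24 nt, and 6 to 9 with 1 library left out. With each sequence counted once they were 3, but those are shares of forms and not of reads. The replicate block left both counts of calls at 0 and changed no other call. Deviations of same-numbered small RNA libraries correlated at 0.05, 0.17 and 0.21, each library best with its own number. Those of gonocyte libraries, a separate assay, correlated at -0.14, -0.04 and -0.01. The numbers were not taken as pairs in the main tests, and the labels do not say whether same-numbered small RNA libraries were made together. The single-name alternative equals the main one, since no mature sequence had more than 1 name. With 3 libraries a genotype, exact tests cannot reach 0.05, and members of few reads are limited by depth.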
